A study of Rattus norvegicus with 16 samples.

Results

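The genes Prom2, Septin6 and Fgf12 were chosen because the difference between neuromuscular junction and fibre was larger in extraocular muscle than in a limb muscle of the same rats. Every probe set that the array annotation gives to these 3 symbols is described, which makes 6 probe sets (1 for Prom2, 2 for Septin6 and 3 for Fgf12) of the 31099 on the array. Members were chosen by the measured contrast itself, the synapse-minus-fiber difference in extraocular muscle minus that in tibialis anterior, so values of that contrast and of the junction difference within each muscle are given as a description without a test. The rule sets no numeric threshold.

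Messenger RNA was measured on 16 Affymetrix arrays from 4 rats, numbered 15, 25, 27 and 29, each of which gave 1 array to each of 4 groups. EOM_synapse held junction regions and EOM_fiber regions away from the junction of the eye-moving rectus muscles (extraocular muscle, EOM), and TA_synapse and TA_fiber held the same regions of the tibialis anterior (TA), a muscle of the lower leg. No treatment, strain, age or genotype is named in the labels. Regions were cut by laser from 10 µm frozen sections stained for acetylcholinesterase, with about 1000 junctions collected per muscle. A laser-cut junction region also holds nerve terminal, Schwann cell and connective tissue, so fewer cells of a type and less RNA per cell cannot be told apart.

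The neuromuscular junction is the contact where a motor axon releases acetylcholine onto a muscle fibre, and nuclei under it transcribe a set of genes that the rest of the fibre keeps low. Extraocular muscle is known for fibre types and innervation patterns that limb muscle lacks. Prominin-2, encoded by Prom2, is a membrane protein best known from plasma membrane protrusions of epithelial cells. Septin-6 is a GTP-binding protein that assembles with other septins into filaments under the cell membrane. Fgf12 encodes a fibroblast growth factor homologous factor, which is not secreted but stays in the cell and binds the tail of voltage-gated sodium channels.

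The start regions of Prom2 and Fgf12 are shown because the 3 genes were high in the same group, and each window holds 300 bases around a transcript start, mostly upstream of it, in the RefSeq table of build GRCr8. The table gives 1 start for Prom2 (chr3:135215028-135215327, minus strand) and 2 for Fgf12 (chr11:85501697-85501996 and chr11:85801508-85801807, plus strand). No window was available for Septin6, which lies on chromosome X, so the matches below leave it out. Capitals mark matches on either strand to GGAA, the core that ETS factors bind, or to the E-box CANNTG, which myogenic factors bind.
Prom2: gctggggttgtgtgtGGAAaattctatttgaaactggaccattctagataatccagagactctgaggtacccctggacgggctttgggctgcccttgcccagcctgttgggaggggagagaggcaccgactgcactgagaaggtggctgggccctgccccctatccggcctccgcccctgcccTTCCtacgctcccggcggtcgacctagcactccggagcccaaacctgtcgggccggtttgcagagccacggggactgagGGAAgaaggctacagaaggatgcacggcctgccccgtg
Fgf12, first start: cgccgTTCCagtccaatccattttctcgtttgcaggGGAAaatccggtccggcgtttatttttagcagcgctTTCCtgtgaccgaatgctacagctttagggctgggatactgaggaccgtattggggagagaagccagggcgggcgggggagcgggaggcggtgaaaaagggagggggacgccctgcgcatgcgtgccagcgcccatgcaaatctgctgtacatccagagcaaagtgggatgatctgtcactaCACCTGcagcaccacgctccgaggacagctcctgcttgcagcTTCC
Fgf12, second start: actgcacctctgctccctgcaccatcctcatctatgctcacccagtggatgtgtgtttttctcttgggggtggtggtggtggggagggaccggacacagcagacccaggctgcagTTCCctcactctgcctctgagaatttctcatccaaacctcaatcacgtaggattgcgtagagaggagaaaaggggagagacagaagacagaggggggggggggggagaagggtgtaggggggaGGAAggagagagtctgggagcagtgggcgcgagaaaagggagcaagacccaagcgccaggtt
The core GGAA was found 3 times in the Prom2 window and 4 and 2 times in the Fgf12 windows, and 95.8% of all 33469 windows of 300 bases held it. The longer N-box CCGGAA, which contains that core and is known from acetylcholine receptor subunit promoters, was in none of the 3 windows and in 15% of all windows. An E-box was found once, in the first Fgf12 window, 5 to 10 bases after the start, and 72.1% of all windows held one. A match is only a match of letters in these windows.

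All 3 genes were highest at the EOM junction, where the 4 arrays of their brightest probe sets lay above all 12 arrays of the other groups. Prom2 averaged 3.21 ± 0.20 (SE) higher on the log2 scale, or 9.27-fold, at the EOM junction than in EOM fibre, Fgf12 2.70 ± 0.36 (6.49-fold) and Septin6 2.37 ± 0.40 (5.18-fold). In TA the difference ran the other way or was small, with -1.08 ± 0.20 for Prom2, -0.97 ± 0.40 for Septin6 and -0.42 ± 0.36 for Fgf12. Levels are quantile-normalized log2(intensity + 16), on which differences of dim probe sets are understated. The differences and SE come from limma with the rat as a block.

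The deposited intensity of Prom2 (probe set 1369347_s_at) was 1015, 934.9, 780.6 and 642.3 in EOM_synapse of rats 15, 25, 27 and 29, against 135.1, 97.53, 45.62 and 67.42 in EOM_fiber. In TA_synapse it was 48.64, 30.16, 32.35 and 16.21, against 89.95, 82.81, 76.14 and 57.17 in TA_fiber. The EOM junction arrays did not overlap with any others, and within TA every junction array was below every fibre array. On the normalized log2 scale the group means were 9.74 ± 0.31 in EOM_synapse, 6.53 ± 0.54 in EOM_fiber, 5.55 ± 0.47 in TA_synapse and 6.63 ± 0.18 in TA_fiber (SD, n = 4 each). In the order of levels TA_fiber and EOM_fiber came next to the EOM junction with overlapping arrays, and EOM_fiber also overlapped with TA_synapse. The suffix of this probe set marks probes that can match more than 1 related transcript, so the signal may not come from Prom2 alone.

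Each rat showed the pattern for Prom2. The synapse-minus-fiber difference was 2.91, 3.18, 3.69 and 3.06 in EOM of rats 15, 25, 27 and 29, against -0.71, -0.87, -1.32 and -1.42 in TA. The difference between the muscles, EOM minus TA, was 4.29 ± 0.29 (SE), from 3.61 to 5.02 over the 4 rats, and was the highest of all 10416 genes tested.

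**Figure D1:**
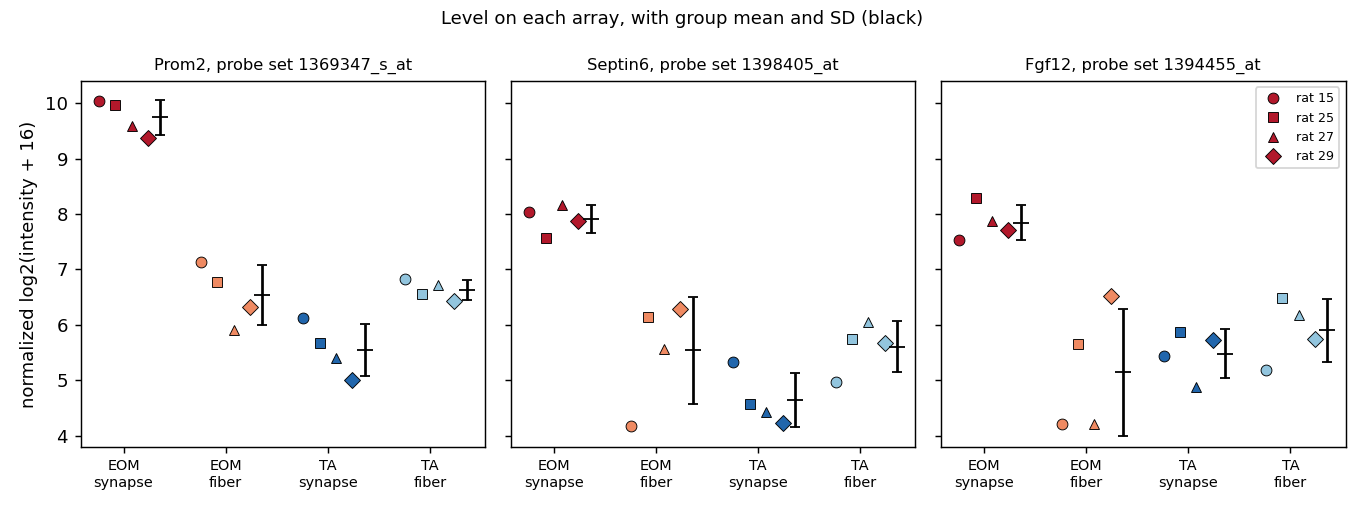
Normalized log2(intensity + 16) of Prom2, Septin6 and Fgf12 (brightest probe set of each) on each of the 16 arrays, by group, with symbols for the rats and black bars for the mean and SD of 4 arrays. The 4 EOM_synapse arrays of each gene sit above all others, at 9.38 to 10.05 for Prom2, 7.57 to 8.16 for Septin6 and 7.53 to 8.28 for Fgf12.

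Septin6 was measured by a pair of probe sets whose levels differed in pattern. The brighter, 1398405_at, had intensities of 260.8, 186.6, 292.2 and 237.3 in EOM_synapse of rats 15, 25, 27 and 29, against 3.207, 52.7, 33.56 and 65.79 in EOM_fiber. In TA_synapse it had 20.93, 6.297, 6.456 and 2.598, against 14.64, 45.61, 44.65 and 26.68 in TA_fiber. The EOM junction stood apart from the rest, while the other 3 groups overlapped with each other. Normalized levels were 7.91 ± 0.26 in EOM_synapse, 5.54 ± 0.96 in EOM_fiber, 4.64 ± 0.48 in TA_synapse and 5.61 ± 0.46 in TA_fiber (SD, n = 4 each).

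By rat, the Septin6 difference was 3.86, 1.42, 2.60 and 1.60 in EOM and 0.37, -1.18, -1.62 and -1.45 in TA for rats 15, 25, 27 and 29. The large EOM value of rat 15 goes with its fibre array, where the intensity of 3.207 lies near the floor set by the pseudocount of 16. EOM minus TA came to 3.34 ± 0.57 (SE), positive in 4 of 4 rats and the fourth highest of all genes. That size depends on the pseudocount, with 5.18 at a pseudocount of 1 and 1.96 at 64.

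Fgf12 had 3 probe sets, and the brightest of them, 1394455_at, had intensities of 183, 310.7, 236.5 and 208 in EOM_synapse of rats 15, 25, 27 and 29. In EOM_fiber it had 3.74, 31.44, 2.501 and 78.31, so rats 15 and 27 were near the floor and rat 29 was not. In TA_synapse it had 23.69, 36.81, 13.64 and 36.89, against 19.83, 79.5, 49.6 and 29.05 in TA_fiber. Only the EOM junction stood apart. Normalized levels were 7.85 ± 0.32 in EOM_synapse, 5.15 ± 1.14 in EOM_fiber, 5.48 ± 0.44 in TA_synapse and 5.90 ± 0.56 in TA_fiber (SD, n = 4 each), and the last 3 overlapped.

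The Fgf12 difference by rat was 3.32, 2.62, 3.66 and 1.19 in EOM and 0.26, -0.61, -1.31 and -0.01 in TA for rats 15, 25, 27 and 29. It therefore spread more between rats than that of Prom2. EOM minus TA was 3.11 ± 0.51 (SE), from 1.19 in rat 29 to 4.97 in rat 27, and ranked 5 among all genes. With a pseudocount of 1 it was 4.60 and with 64 it was 1.88. In this contrast 0.922% of all genes passed an adjusted p of 0.05, and 10.1% and 10.2% passed in the junction differences of EOM and TA, from which nothing is read for genes chosen by them.

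**Figure D2:**
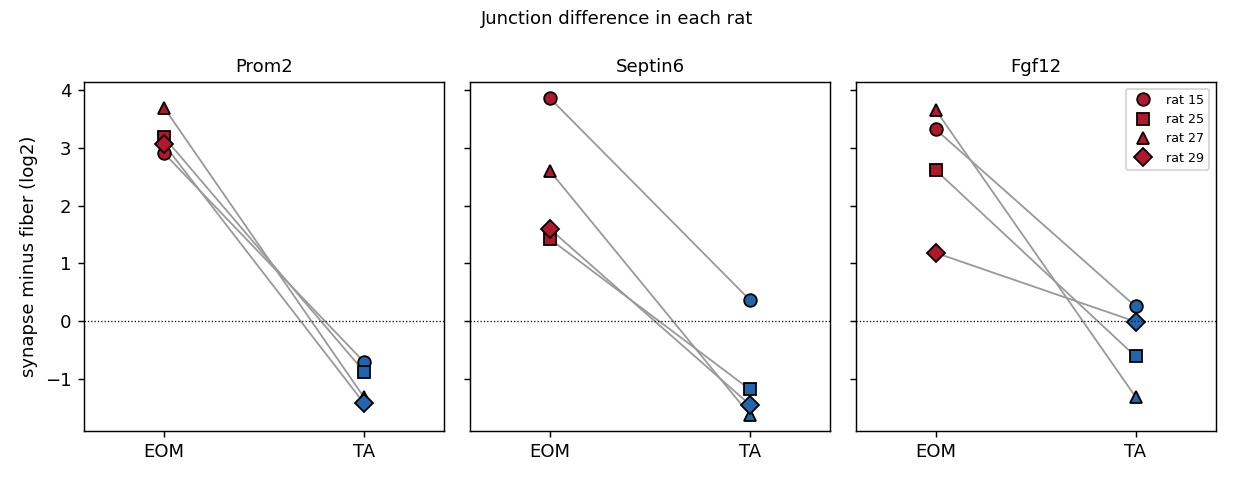
Synapse-minus-fiber difference (log2) in EOM (left) and TA (right) for Prom2, Septin6 and Fgf12, with a line joining the 2 muscles of each rat. All 12 lines run down to TA, and the EOM values span 2.91 to 3.69 for Prom2, 1.42 to 3.86 for Septin6 and 1.19 to 3.66 for Fgf12.

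The second Fgf12 probe set, 1377655_at, followed the first, with intensities of 121.8, 210.9, 90.77 and 111.8 in EOM_synapse against 5.515, 45.5, 18.62 and 21.6 in EOM_fiber, again in rats 15, 25, 27 and 29. In TA_synapse it had 10.9, 26.5, 1.976 and 32.79, against 10.56, 84.85, 17.85 and 2.168 in TA_fiber. Its junction difference was 1.98 ± 0.34 in EOM and -0.18 ± 0.34 in TA (SE). The EOM junction arrays were again the highest, although the lowest of them, 6.71 on the normalized log2 scale in rat 27, was close to the highest of the others, 6.59 in TA_fiber of rat 25.

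The third Fgf12 probe set, 1370233_at, and the dimmer Septin6 set, 1382442_at, did not set the EOM junction apart from the other groups. Probe set 1370233_at exceeded its array's median on 2 of 16 arrays, did not pass the filter on low values and had a junction difference of 0.24 ± 0.45 in EOM and 0.05 ± 0.45 in TA (SE). For 1382442_at the intensity was 6.142, 21.52, 17.58 and 44.76 in EOM_synapse of rats 15, 25, 27 and 29, against 2.956, 13.22, 6.473 and 14.47 in EOM_fiber. In TA_synapse it was 11.59, 12.53, 85.55 and 12.89, against 29.38, 54.4, 23.28 and 44.27 in TA_fiber. Its junction difference was 0.59 ± 0.35 in EOM (higher in 4 of 4 rats) and -0.47 ± 0.35 in TA (higher in 1 of 4), and EOM minus TA was 1.06 ± 0.49 (3 of 4 rats), with the signs of the brighter set at smaller size. TA fibre lay above EOM fibre in every rat, which the brighter Septin6 set did not show. Over the 16 arrays the pair of Septin6 sets had Pearson's r = 0.01 (Spearman's rho = 0.07), while 1394455_at and 1377655_at of Fgf12 had r = 0.86 (rho = 0.81). Which transcripts each probe set reads was not analysed here.

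**Figure D3:**
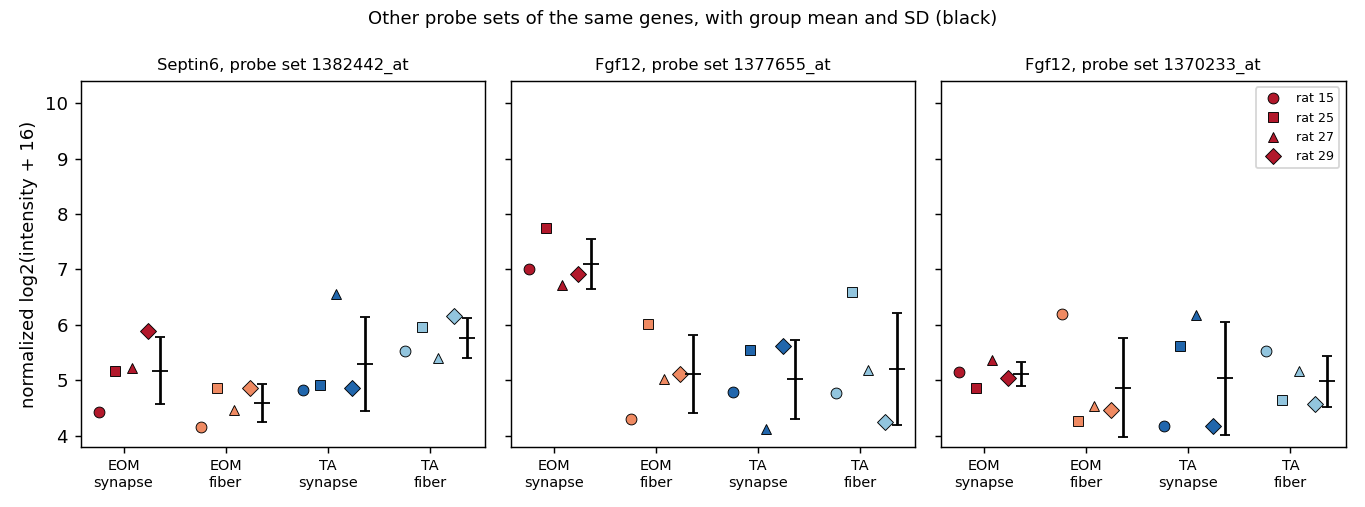
Normalized log2(intensity + 16) of the other 2 probe sets of Fgf12 and the other probe set of Septin6 on each of the 16 arrays, by group, drawn as for the brightest sets. Only 1377655_at of Fgf12 has its 4 EOM_synapse arrays, 6.71 to 7.74, above all others, and 1370233_at and 1382442_at overlap across groups.

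The difference between the muscles averaged over junction and fibre, EOM minus TA, did not enter the choice of the genes and is computed separately from the contrast that did, since every rat gave all 4 regions. It was tested for Prom2, which was above the array median on 9 arrays outside the EOM junction. Prom2 was higher in EOM by 2.05 ± 0.14 (SE) in 4 of 4 rats (limma, Benjamini-Hochberg adjusted p = 4.08e-07 over 10416 genes). Of all genes tested, 29% passed the threshold of 0.05 in this contrast, 14.9% higher and 14% lower in EOM. The call of Prom2 held under every alternative run. The EOM junction arrays, where Prom2 was high, enter this mean as well as the contrast that chose the gene. In fibre alone EOM minus TA was -0.10 ± 0.52 (SD, n = 4 rats). The call is therefore not read as a difference between the muscles away from the junction, nor as support apart from the junction difference that chose the gene.

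Septin6 and Fgf12 passed the filter, which asks for at least 4 arrays above their own median, only through the EOM junction, since 3 arrays of the other groups passed for each. A gene admitted by the group where it is high had to differ between the muscles, so their values are a description and the p-values of the fit are not read as tests. Septin6 was 1.60 ± 0.29 (SE) higher in EOM, in 4 of 4 rats, and Fgf12 0.81 ± 0.26 higher, in 4 of 4 rats. The second Fgf12 set, 1377655_at, was admitted in the same way and gave 0.99 ± 0.24. The third, 1370233_at, gave -0.02 ± 0.32 (limma, adjusted p = 0.976, in a fit without the filter), and 1382442_at of Septin6 gave -0.64 ± 0.25 (limma, adjusted p = 0.0715, lower in 4 of 4 rats).

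By region, EOM minus TA at the junction was 4.19 ± 0.19 for Prom2, 3.28 ± 0.50 for Septin6 and 2.36 ± 0.46 for Fgf12. In fibre it was -0.10 ± 0.52, -0.07 ± 0.68 and -0.75 ± 1.14 in the same order (SD, n = 4 rats, described without a test).

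Known junction genes set the scale for these differences. Chrne, the adult acetylcholine receptor subunit, was at 11.36 ± 0.14 in EOM_synapse, 4.99 ± 0.83 in EOM_fiber, 10.42 ± 0.35 in TA_synapse and 4.39 ± 0.08 in TA_fiber (SD, n = 4 each). It rose at both junctions, by 6.36 ± 0.32 in EOM and 6.03 ± 0.32 in TA (limma, adjusted p = 1.07e-07 and 4.77e-08). At the EOM junction 11 of the 15 postsynaptic genes measured rose and none fell, where 5.62% of all genes rose and 4.51% fell. The TA junction likewise had 11 higher and none lower, where 6.7% of all genes rose and 3.53% fell. Their median difference was 1.68 in EOM and 2.77 in TA, against -0.04 and -0.01 over all genes. In the contrast of EOM minus TA junction differences, none of the 15 was higher and 3 were lower, against 0.259% and 0.662% of all genes. These were Chrna1, another receptor subunit, at -2.89 ± 0.45, the ETS factor gene Etv4 at -2.88 ± 0.35 and Lrp4, the agrin receptor, at -1.75 ± 0.31 (limma, adjusted p = 0.00698, 0.0011 and 0.0175, lower in 4 of 4 rats each). Mean levels at the EOM and TA junctions were 12.81 and 12.18 for Chrna1, 9.09 and 9.27 for Lrp4, and 6.36 and 9.17 for Etv4. In EOM and TA fibre they were 8.96 and 5.43, 8.07 and 6.50, and 4.44 and 4.37. Of the 3, only Etv4 was thus clearly lower at the EOM junction itself, by the probe set used. The call of Lrp4 was lost without EOM_synapse 29, TA_synapse 15 or 29, or without any 1 rat (adjusted p = 0.0502 to 0.161), without the block (0.0959) and median centred (0.126). That of Chrna1 was lost without rat 15 or 29 (0.0576 to 0.0995) and with a pseudocount of 1 (0.115), and that of Etv4 with a pseudocount of 1 (0.446). With the filter at 8 arrays another probe set stood for Etv4 and gave -1.46 ± 0.38 without passing (0.092). The brightest Etv4 set did not pass that filter, so the TA junction, where it was high, may have admitted it. Prom2, Septin6 and Fgf12, chosen for the opposite sign, lie on the other side of the diagonal in the plot of junction differences in the 2 muscles.

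**Figure D4:**
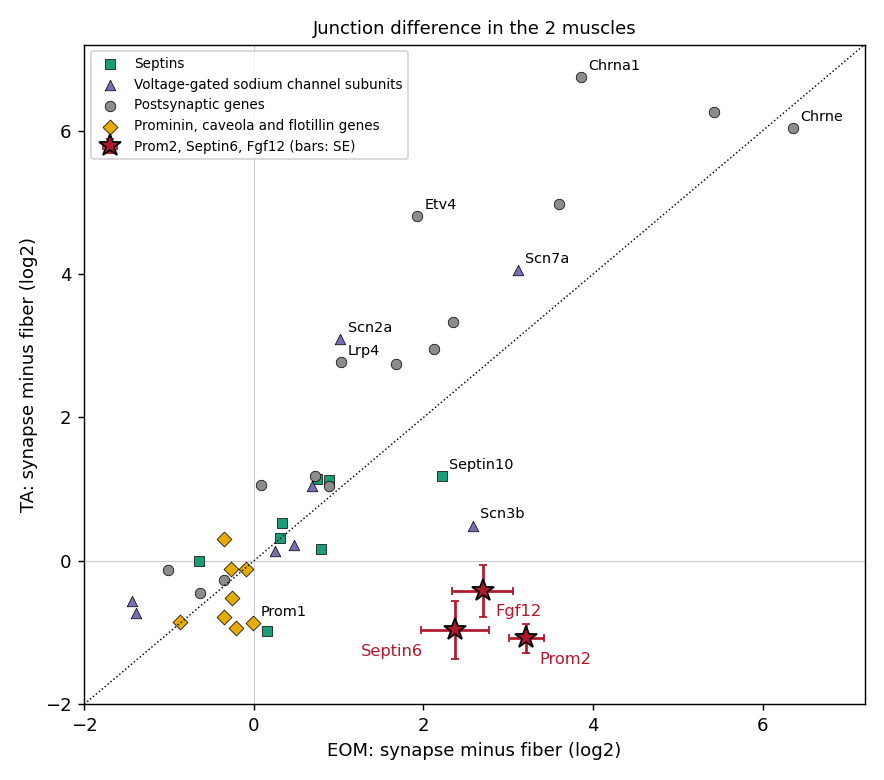
Synapse-minus-fiber difference (log2) in EOM (horizontal axis) and TA (vertical axis) for Prom2, Septin6 and Fgf12 (stars with SE bars) and for the measured genes of 4 lists, with a dotted line of equal difference. The 3 stars lie at 2.37 to 3.21 in EOM and below 0 in TA, whereas Chrne lies near the line at 6.36 and 6.03.

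Of the 8 other septins measured, none passed in EOM minus TA junction differences (median -0.11, against -0.02 over all genes), a contrast in which 0.922% of all genes passed, so nothing is read from that count for these 8 or for the short lists below. Septin3 had the highest value, 1.14 ± 0.73 (limma, adjusted p = 0.627, higher in 3 of 4 rats), and Septin10 the next, 1.03 ± 0.39 (adjusted p = 0.323, higher in 4 of 4 rats). Septin10 was at 9.09 ± 0.21 in EOM_synapse and 6.87 ± 0.51 in EOM_fiber, and at 7.88 ± 0.53 in TA_synapse and 6.69 ± 0.35 in TA_fiber (SD, n = 4 each). Septin10 rose at the EOM junction by 2.21 ± 0.28 (adjusted p = 0.00021) and at the TA junction by 1.19 ± 0.28 (adjusted p = 0.0141, lost without TA_synapse 15 or 25, or rat 25 or 27, at 0.0528 to 0.115). Septin9 rose by 0.89 ± 0.20 and 1.13 ± 0.20 (adjusted p = 0.013 and 0.00265), the EOM call being lost without rat 15, 27 or 29 (0.082 to 0.0855). Averaged over regions, 3 of the 8 were higher in EOM and 1 lower, against 14.9% and 14% of all genes, with Septin8 at 0.94 ± 0.13 (adjusted p = 0.000141, 4 of 4 rats). The lower one, Septin11, had a positive value with arrays as deposited or median centred, where another probe set stood for the gene. Septins 2 and 7, with which septin-6 forms filaments, differed by 0.46 and 0.45 between the muscles (adjusted p = 0.0556 and 0.207). Of 6 measured septin partners, Cdc42 and its effectors, none passed in EOM minus TA junction differences (0.922% of all genes), and Cdc42ep2 was lower in EOM (-0.50 ± 0.13, adjusted p = 0.0122, lost without rat 25 at 0.0686).

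Among the 8 sodium channel subunits measured around Fgf12, 3 had a positive EOM minus TA junction difference and 1 of them, Scn3b, passed, where 0.922% of all genes did. Scn3b, an auxiliary beta subunit of voltage-gated sodium channels, was at 9.17 ± 0.52 in EOM_synapse and 6.59 ± 0.37 in EOM_fiber, and at 7.35 ± 0.49 in TA_synapse and 6.85 ± 0.30 in TA_fiber (SD, n = 4 each). Its junction difference was 2.58 ± 0.26 in EOM (limma, adjusted p = 3.27e-05) and 0.49 ± 0.26 in TA (adjusted p = 0.279), and EOM minus TA was 2.09 ± 0.37 (adjusted p = 0.0137, 4 of 4 rats). The last call was lost without rat 15, 25 or 29 (0.0775 to 0.132). The others were Scn2b at 0.26 ± 0.63 and Scn3a at 0.11 ± 0.56 (adjusted p = 0.93 and 0.971), and the median of the 8 was -0.51. Scn7a, an atypical sodium channel, rose at both junctions, by 3.11 ± 0.33 in EOM and 4.06 ± 0.33 in TA (adjusted p = 5.18e-05 and 2.34e-06). Scn2a rose at the TA junction by 3.09 ± 0.36 (adjusted p = 6.53e-05) and was 1.02 ± 0.36 higher at the EOM junction without passing (adjusted p = 0.0888). With the filter at 8 arrays Scn2a had no value. The TA junction, where it was high, may thus have admitted it, which limits its call. Scn4b rose by 0.69 ± 0.17 in EOM and 1.05 ± 0.17 in TA (adjusted p = 0.0204 and 0.00119). Both calls of Scn4b were lost with values as deposited (0.677 and 0.153) and median centred (0.476 and 0.182). In all, 3 of the 8 rose at the EOM junction and 2 fell, against 5.62% and 4.51% of all genes. Those that fell were Scn1a at -1.39 ± 0.29 and Scn10a at -1.44 ± 0.41 (adjusted p = 0.0082 and 0.0416, lower in 4 of 4 rats each). Both were dim, at 6.34 and 6.24 in EOM_fiber, where they were highest, and their calls were not followed over leave-outs. Scn1a had no value with the filter at 8 arrays, so EOM_fiber may have admitted it. Scn4a, the main channel of adult muscle fibre, lay below the filter. The related factor Fgf13 was the only other homologous factor measured and had a junction difference of 0.41 ± 0.21 in EOM and 0.87 ± 0.21 in TA (adjusted p = 0.242 and 0.0151, the TA call lost without TA_fiber 29, TA_synapse 27, or rat 15 or 27 at 0.0517 to 0.107). Fgf11 and Fgf14 lay below the filter.

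Around Prom2, the related gene Prom1, which encodes prominin-1, did not rise at the EOM junction. Prom1 was at 9.92 ± 0.08 in EOM_synapse and 9.92 ± 0.19 in EOM_fiber, and at 8.84 ± 0.41 in TA_synapse and 9.71 ± 0.35 in TA_fiber (SD, n = 4 each). Its difference was -0.01 ± 0.21 in EOM (adjusted p = 0.992) and -0.87 ± 0.21 in TA (adjusted p = 0.0183, 4 of 4 rats), and EOM minus TA was 0.86 ± 0.30 (adjusted p = 0.266). The TA call was lost without TA_synapse 15, 25 or 29, TA_fiber 25, 27 or 29, or rat 25, 27 or 29 (0.0503 to 0.117). Of the 8 measured prominin, caveola and flotillin genes, none passed in EOM minus TA junction differences (0.922% of all genes). In the mean over regions 5 of them were higher in EOM and none lower, against 14.9% and 14% of all genes, among them Prom1 at 0.64 ± 0.15 and Cav1, which builds caveolae, at 0.62 ± 0.13 (adjusted p = 0.00556 and 0.00243). The call of Prom1 was lost without rat 15 (0.054), and that of Cav1 with arrays median centred (0.102). Cavin2 lost its call in 11 of 20 leave-outs and median centred (0.0601). Cavin3 lost it without rat 15 or 27 (0.0621 and 0.0717), and Flot2 without rat 29 (0.0513). Prom2 has been linked to iron export and resistance to ferroptosis, and of 5 measured genes of that kind none passed in EOM minus TA junction differences (0.922% of all genes). In the mean over regions 1 of the 5 was higher in EOM and 1 lower, against 14.9% and 14% of all genes. Tfrc, the transferrin receptor, was lower (-1.33 ± 0.19, lower in 4 of 4 rats, adjusted p = 0.000196). Gpx4 was higher (0.52 ± 0.17, 4 of 4 rats, adjusted p = 0.0343), a call lost in 12 of 20 leave-outs, as deposited (0.123), median centred (0.344) and without the filter (0.0556). Acsl4, which feeds lipids into ferroptosis, rose at the EOM junction by 1.28 ± 0.24 (adjusted p = 0.00457, lost without rat 15 at 0.0598).

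The genes whose levels over the 16 arrays were most like those of each member were found by Pearson's r across all 10416 genes, as a description. The arrays share their 4 groups and rats, so a high r mainly restates a common group pattern. For Prom2 these were Tpbg (r = 0.91), a membrane glycoprotein gene, Lix1 (0.90), Ank2 (0.89), which encodes a spectrin-binding ankyrin, Tstd3 (0.89) and Ptgr1 (0.89), a prostaglandin reductase gene. For Septin6 they were Acsl3 (0.93), an acyl-CoA synthetase gene, Prom2 (0.88), Tstd3 (0.86), Fgf12 (0.86) and Ptgr1 (0.86). For Fgf12 they were Septin6 (0.86), the phosphatase gene Ptpn13 (0.82), Kcnip3 (0.81), the kinase gene Nek1 (0.80) and Akr1c19 (0.79). Ranked by Spearman's rho, 1 of the 5 stayed for each member.

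Among them, Kcnip3, a calcium sensor that binds potassium channels, stood in EOM_synapse at 8.68 ± 0.46, in EOM_fiber at 5.04 ± 0.69, in TA_synapse at 5.43 ± 0.73 and in TA_fiber at 5.31 ± 0.73 (SD, n = 4 each). Tpbg was at 8.30 ± 0.42, 5.70 ± 0.32, 4.45 ± 0.60 and 4.64 ± 0.50 in the same order of groups. Unlike Prom2, both had TA junction and fibre at about the same level, with differences of 0.13 ± 0.46 and -0.18 ± 0.33 (SE). Within groups, after group means were removed, the brightest sets of Septin6 and Fgf12 moved together over the arrays (r = 0.61). Prom2 did not move with Septin6 (r = -0.13) or Fgf12 (r = -0.08). Other probe sets did not repeat the first value. The brighter Septin6 set had r = 0.28 with 1377655_at and -0.61 with 1370233_at of Fgf12, and 1382442_at had 0.06 with 1394455_at. In EOM_fiber of rat 15 both brightest sets lay near the floor (3.207 and 3.74).

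Markers of other cells at the junction are given beside these results, since a laser-cut region is a mixture. Terminal Schwann cell and myelin genes (7 of 10 measured) had a summed normalized intensity of 7138 to 13780 in EOM_synapse, 1652 to 2573 in EOM_fiber, 3123 to 5161 in TA_synapse and 381.3 to 718.7 in TA_fiber, and 5 of the 7 rose at each junction, against 5.62% of all genes in EOM and 6.7% in TA. The sum was highest at the EOM junction, and that at the TA junction was above EOM fibre. Fibroblast genes (8 of 8) summed to 19810 to 37130 in EOM_synapse, 7434 to 25380 in EOM_fiber, 9523 to 19740 in TA_synapse and 2212 to 6674 in TA_fiber. The sums for neuron and axon genes (3 of 10) were 188.2 to 454.7, 191.4 to 297.5, 95.92 to 156.4 and 11.25 to 102 in the same order of groups, and Snap25, Syt1, Chat and Slc18a3 lay below the filter. For epithelial and gland genes (3 of 9, Prom1 among them) they were 1095 to 1330, 837.9 to 1163, 455.4 to 780.6 and 619.7 to 1065. The keratin genes Krt5, Krt8, Krt14, Krt18 and Krt19 and the claudin gene Cldn4 lay below the filter, while Cdh1, which encodes E-cadherin, rose by 2.59 ± 0.33 at the EOM and 1.96 ± 0.33 at the TA junction (limma, adjusted p = 0.000238 and 0.00164). Epcam rose by 1.64 ± 0.25 at the EOM junction (adjusted p = 0.000918) and was 0.58 ± 0.25 higher at the TA junction (adjusted p = 0.177). Neither Cdh1 nor Epcam had a value with the filter at 8 arrays. The junction arrays, where both were high, may have admitted them, which limits their calls. The part of these cells in the results on Prom2, Septin6 and Fgf12 was not tested.

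Endothelial genes (7 of 8) summed to 1170 to 1813 in EOM_synapse, 1682 to 2502 in EOM_fiber, 2160 to 3612 in TA_synapse and 1191 to 1823 in TA_fiber. Macrophage genes (6 of 7) summed to 369.2 to 678.1, 553.8 to 1445, 397.1 to 487.1 and 208.8 to 426.5, and smooth muscle and pericyte genes (7 of 8) to 1353 to 1670, 1525 to 3128, 1622 to 3034 and 2007 to 3314, in the same order. None of these 3 lists was highest at the EOM junction. The endothelial sum at the TA junction goes with 1 gene, Plvap, which was 5.65 ± 0.37 higher there than in TA fibre (limma, adjusted p = 3.55e-07). Pecam1, Vwf, Kdr, Tek and Tie1 had negative differences there (-0.25 to -0.76). Kdr alone of them passed (adjusted p = 0.0157), a call lost with arrays median centred (0.0844). Cldn5 had a difference of 0.18 ± 0.44 (adjusted p = 0.864). Satellite cell genes (2 of 4) summed to 111.3 to 153.4, 169.7 to 305.8, 84.15 to 177.4 and 103.3 to 195.7. Skeletal muscle fibre genes (8 of 8) summed to 116500 to 139900 in EOM_synapse, 140600 to 176000 in EOM_fiber, 154300 to 180500 in TA_synapse and 169500 to 182500 in TA_fiber. Myh13, the extraocular myosin heavy chain, was at 13.51 in EOM_synapse and 14.10 in EOM_fiber against 4.53 in TA_synapse and 5.53 in TA_fiber (means of normalized log2 values).

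On the arrays as a whole, the median intensity was 33.33 to 56.92 and the correlation between arrays of a group 0.867 to 0.949 on the log2(intensity + 16) scale. The ratio of 3' to 5' control probe sets of Gapdh, a measure of how far RNA was intact and fully copied, was 8.34 to 12.3 in EOM_synapse, 10.7 to 14.8 in EOM_fiber, 7.84 to 19.0 in TA_synapse and 10.5 to 15.4 in TA_fiber, with overlap among all groups. The same ratio for actin was 5.27 to 26.9 in EOM_synapse, 8.35 to 12.0 in EOM_fiber, 13.1 to 22.9 in TA_synapse and 10.3 to 28.0 in TA_fiber, so that EOM_fiber and TA_synapse did not overlap. Its part in the results was not tested. The deposited table holds no detection calls, so whether an intensity of a few units differs from background is unknown, and the number of arrays limits the precision.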

How the data were processed

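The deposited table gives linear probe set intensity on 16 arrays, which the authors had scaled, since the values show a mean of 150.06 to 150.08 on each array once 2% of probe sets are trimmed at either end. Summarising software: not given in the sources used here. Per the labels' protocols, 600 ng of amplified RNA entered the second cycle of labelling.

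From these, log2(intensity + 16) was quantile normalized after 57 control probe sets were left out. Names came from the array's annotation with symbols updated through the RefSeq gene table of GRCr8: 20826 probe sets had 1 gene, 436 had several and 9837, controls included, had none. Probe sets above their array's median on at least 4 arrays were kept, and 1 per gene, the brightest, was used (10416 genes). The fit was made in limma 3.58.1 under R 4.3.3. It had 4 group means and a fixed term for the rat, with 9 residual and 4.58 prior degrees of freedom. P-values were Benjamini-Hochberg adjusted across these genes. The steps were tested on simulated data.

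The replicate number in the titles was read as the rat, since 4 rats gave both muscles. With group means removed, the 24 same-number pairs of arrays correlated with a mean r of 0.112 (-0.0666 to 0.245, across genes), and for 14 of 16 the nearest arrays bore the same number. Arrays of a group came from separate rats.

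Members and gene lists were chosen with earlier results of these data known. Named genes are the members, the 5 genes most like each, and, per list, the 5 with the lowest adjusted p under 0.05 in the mean muscle difference and in the contrast between junction differences. Not all are printed, and list genes outside this rule were named after their values were seen, as were those on which a statement about a list rests. Alternatives covered the block (none, random), normalization (as deposited, median centred), the filter (none, 8 arrays), pseudocounts of 1 and 64, every probe set fitted on its own, and leave-outs of single arrays or rats.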

Additional observations from a re-analysis of the deposited data

Results flagged for a closer look

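In 2 of 24 groups of 4 arrays, over the 6 probe sets, 1 array stood apart from the other 3, with a gap above Dixon's critical value, where chance gives about 1 in 20. For Septin6 probe set 1382442_at this was rat 27 in TA_synapse (6.56 against 4.83 to 4.91, gap 0.952 of the range), and for Fgf12 probe set 1370233_at rat 15 in EOM_fiber (6.19 against 4.26 to 4.53, gap 0.858).

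Prom2 was higher at the junction in EOM and lower at the junction in TA in every rat, a difference of 4.29 that was not tested, since it chose the gene. Among genes of the lists that were not chosen for it, EOM minus TA junction differences passed the threshold (limma, adjusted p = 0.0137, 0.00698, 0.0175, 0.0011, 0.00528 and 0.0117) for Scn3b at 2.09, Chrna1 at -2.89, Lrp4 at -1.75, Etv4 at -2.88, the collagen gene Col1a1 at -1.6 and the endothelial gene Plvap at -3.1. The call of Col1a1 was lost with arrays median centred (-1.41, adjusted p = 0.064). With the filter at 8 arrays another probe set stood for Etv4 and did not pass (-1.46, limma, adjusted p = 0.092).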

How the results depend on the processing

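For Prom2 the mean muscle difference, which uses the same arrays as the contrast that chose the gene, kept its call in all 9 alternatives and 20 leave-outs. Septin6 and Fgf12 entered the fit only through the EOM junction, so no stability is read from their p-values, and the filter at 8 arrays gave neither a value. As a description, the value of Septin6 (1.60) ran from 0.99 to 2.15 over the alternatives and from 1.43 to 1.84 over the leave-outs. That of Fgf12 (0.81) ran from 0.60 to 0.94 and from 0.57 to 0.95. The described difference of junction differences was 4.90 and 3.29 for Prom2 and 5.18 and 1.96 for Septin6 with pseudocounts of 1 and 64, and positive in every setting run for all 3 genes. Counts of genes past the threshold were 96 for that contrast, 56 median centred, and 46 and 218 with pseudocounts of 1 and 64. At the EOM junction there were 1055 (55.5% higher), and 689 (79.4% higher) median centred. Leave-outs gave 25 to 99 for the contrast between muscles, 475 to 1121 for the EOM and 586 to 1202 for the TA junction (1066 genes), and 2076 to 3028 for the mean muscle difference (3018). Median centring moved the median of all genes in the contrast to 0.10. The mean muscle difference of Septin11 (-0.73) was 0.97 as deposited, 0.90 median centred, 0.88 with the filter at 8 arrays and 0.46 with a pseudocount of 64, and that of Scn4b (0.45) was -0.018 median centred. Of 1154 values of 40 other results on named genes, 1052 kept their call and direction and 97 lost the call. Of the 5 genes most like each member, 4, 3 and 3 stayed for Prom2, Septin6 and Fgf12 with values as deposited, and 1 for each by Spearman's rho. No detection calls were given, so the signal of Fgf12 and Septin6 over background is unknown.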
